A study of Mus musculus with 68 samples.

Results

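The RNA levels of 10 genes of the Hippo pathway were followed from cumulus cells (CCs), through embryos made from them by somatic cell nuclear transfer (SCNT), to both lineages of the blastocyst, the inner cell mass (ICM) and the outer trophectoderm (TE), and in fertilized blastocysts after morpholino (MO) injection. The genes were chosen by name, as the rows called Yap1, Wwtr1, Lats1, Lats2, Amot, Amotl1, Amotl2, Nf2, Tead1 and Tead4 among 24421 gene symbols, and all 10 were found in each of 68 libraries. On mm10 they lie on chromosomes 3 (Wwtr1), 6 (Tead4), 7 (Tead1), 9 (Yap1, Amotl1 and Amotl2), 10 (Lats1), 11 (Nf2), 14 (Lats2) and X (Amot). Libraries were made by Smart-seq2, which copies polyadenylated RNA, from pools of blastomeres. The SCNT experiment held 3 libraries of CCs, 5 of 4-cell (4C) embryos and 6 of each other stage, which were 6 and 14 hours post activation (hpa), early and late 2-cell (E2C and L2C), 8-cell (8C), morula, ICM and TE. Oocyte donors were BDF1 mice, their CCs gave the nuclei, and every SCNT embryo had been activated in strontium chloride with cytochalasin B, so none was fertilized. The second experiment held 2 libraries each of ICM and TE from fertilized C57BL/6j embryos labelled control, Max MO or Mcrs1 MO. An MO is an antisense oligonucleotide injected into the zygote. The control libraries carry the label untreated, while per the study they received a random control MO, at a higher concentration than Max MO and Mcrs1 MO, and dose and target cannot be told apart. The study describes its replicates as biological, and the labels name no culture or day, so the p-values measure the spread between these libraries.

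The Hippo pathway is a kinase relay that reads cell contact and polarity. Merlin (Nf2) and the motin proteins (Amot, Amotl1, Amotl2) help to activate the kinases LATS1 and LATS2, which phosphorylate the co-activators YAP (Yap1) and TAZ (Wwtr1) and keep them out of the nucleus. Unphosphorylated YAP and TAZ enter the nucleus and act through the TEAD DNA-binding proteins. In the mouse morula the relay is quiet in polar outer cells, where TEAD4 with YAP turns on trophectoderm genes such as Cdx2 and Gata3, and active in inner cells. Most of this control is by phosphorylation and location of proteins, which RNA levels do not show.

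Promoter sequence is shown for the 5 members whose window held a TEAD motif (GGAATG, or CATTCC on the other strand) or an E-box (CACGTG, the same on both strands), which is the site MAX binds with its partners, since members that rose together and members compared after Max MO are described later. RefSeq windows on GRCm38.p6, from 250 bases before to 50 after the start of transcription, were at hand for 8 of the 10 genes, as 11 windows because Wwtr1, Nf2 and Lats2 have 2 each. The TEAD motif was in 5 of the 11 windows, of 4 genes, since both Wwtr1 windows hold the same site, and the E-box in 3 windows of 3 genes, against 14.7% and 7.15% of all 32851 windows. The second Lats2 window held neither. The stretches are from Yap1 (chr9:8004696-8004795, minus strand), Lats2 (chr14:57746114-57746213, minus strand), Amot (chrX:145487722-145487821, minus strand), Wwtr1 (chr3:57575994-57576093, minus strand) and Amotl2 (chr9:102717692-102717791, plus strand), all upstream of the start except the last 10 bases of the Lats2 stretch. Capitals mark the motifs.
Yap1: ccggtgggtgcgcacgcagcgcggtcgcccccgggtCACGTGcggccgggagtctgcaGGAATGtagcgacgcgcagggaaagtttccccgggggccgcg
Lats2: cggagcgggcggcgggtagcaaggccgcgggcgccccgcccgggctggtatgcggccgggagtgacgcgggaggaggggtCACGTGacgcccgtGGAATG
Amot: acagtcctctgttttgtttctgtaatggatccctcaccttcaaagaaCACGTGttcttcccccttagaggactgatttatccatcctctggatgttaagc
Wwtr1: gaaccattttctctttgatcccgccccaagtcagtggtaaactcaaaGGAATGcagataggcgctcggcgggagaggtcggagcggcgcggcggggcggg
Amotl2: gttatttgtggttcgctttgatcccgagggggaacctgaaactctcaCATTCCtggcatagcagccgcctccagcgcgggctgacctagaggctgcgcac
The E-box of Lats2 began at base -10 and that of Yap1 at base -163, counted from the start of transcription, and the Amot E-box at base -135. A match of letters is a description, and binding at these places was not measured.

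Values are TPM, transcript abundances scaled by gene length and by the total of the library, so that levels can be set side by side between genes. That total includes assembled loci without a gene name. Named genes held between 30.4% and 94.4% of it, with 30.4% to 61.8% at L2C and 87.1% to 89.7% in morulae. Levels compared between stages therefore also depend on this share. Coverage corresponded to between 1.00 and 5.17 aligned gigabases per library, and between 6177 and 11771 genes reached 1 TPM. A low value can be a missed gene or a low level. Ldha, which encodes an enzyme of glycolysis, was under 1 TPM in 13 of the 68 libraries. Pgk1, Rpl3 and Tbp were each under 1 TPM in 1 library. Whether the low Ldha values are missed RNA was not tested. Read counts were not used here, so no counting interval is given. A gene was called changed with a change of at least 2-fold on the log2(TPM + 1) scale, which understates changes of low genes, and a Benjamini-Hochberg adjusted p under 0.05 over all genes tested in limma. Amotl1 averaged under 1 TPM in each fit and was therefore not tested. In these pools, fewer cells of a type and less RNA per cell cannot be told apart.

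The labelled identity of the libraries was checked with markers. Has2, Inha and other CC markers summed to between 1665 and 2486 TPM in CCs, although Amh stayed under 1 TPM there. Oocyte transcripts (Zp1, Zp2, Zp3, Gdf9 and others, 8 in all) summed to at most 2.25 TPM in CCs and to between 6474 and 15615 TPM at 6 hpa. In the blastocysts, the 8 ICM markers summed to at least 2338 TPM in every ICM library and to at most 1467 TPM in every TE library, a gap that rested on Spp1, which CCs also held at between 97817 and 137886 TPM. Without Spp1 the lineages overlapped in SCNT blastocysts, at 344 to 898 TPM in ICM and 67.2 to 379 TPM in TE. They also overlapped after Mcrs1 MO, at 447 to 1055 TPM in ICM and 452 to 581 TPM in TE. In fertilized controls they stayed apart, at 1492 to 2046 TPM in ICM and 212 to 338 TPM in TE. After Max MO they were apart as well, at 1186 to 1321 TPM in ICM and 179 to 245 TPM in TE. The ICM libraries also held TE markers. The 8 TE markers summed to between 2050 and 8610 TPM in SCNT ICM and to between 5193 and 16319 TPM in SCNT TE, and Sox2 was listed at 0 in 2 of the 6 SCNT ICM libraries. Control ICM replicate 1 went against its label in part. Its TE markers summed to 16314 TPM, against 622 TPM in replicate 2, with Cdx2 at 57.7 against 0.222 TPM and Gata3 at 1509 against 63.7 TPM, while its ICM markers Nanog (561 TPM) and Sox2 (5.12 TPM) were also high. Control ICM replicate 2 in turn held Oosp1 at 9.24 TPM and Gdf9 at 8.39 TPM, both transcripts of the oocyte that were listed at 0 in replicate 1. For the members, values without each of these libraries are given where leaving it out changed a call. For the other genes named below such values are given only in part, and further calls of lineage genes depended on these libraries.

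**Figure D1:**
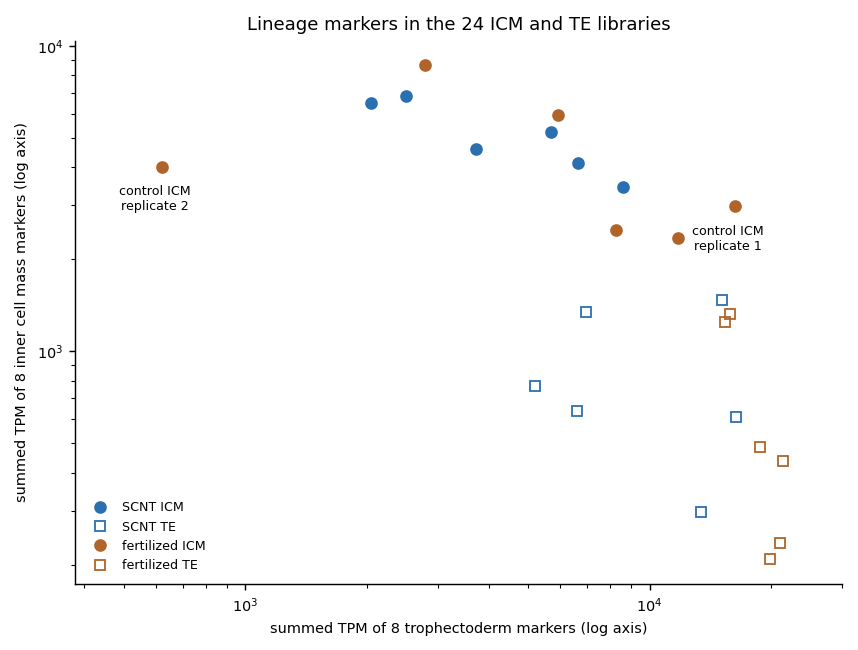
Summed TPM of 8 trophectoderm markers (x axis) against summed TPM of 8 inner cell mass markers (y axis), both on log axes, for each of the 24 ICM and TE libraries. Control ICM replicate 1 sits at 16314 TPM of trophectoderm markers, among the TE libraries on that axis, while control ICM replicate 2 is the farthest to the left at 622 TPM.

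The co-activator genes had opposite courses. Yap1 RNA was high in the embryo from the start and was lost after L2C. It lay between 2.65 and 3.08 TPM in CCs, and at 6 hpa between 17.0 and 30.7 TPM with a median of 25.2. The 14 hpa libraries ran from 20.1 to 32.8 TPM (median 29.1), the E2C libraries from 30.9 to 33.0 TPM (median 31.2) and the L2C libraries from 21.3 to 57.7 TPM (median 41.1). No embryo library before 4C was under 17.0 TPM. At 4C the 5 libraries held 4.91, 12.5, 9.58, 18.2 and 9.41 TPM, all below the lowest L2C library. Later medians were 5.38 TPM at 8C, 2.77 TPM in morulae, 3.93 TPM in ICM and 4.25 TPM in TE, with a range over these 4 groups from 0.117 to 12.9 TPM. Yap1 rose between CCs and 6 hpa by 2.67 on the log2 scale (SE 0.51, limma adjusted p = 7.73e-06) and fell by 1.71 from L2C to 4C (SE 0.44, adjusted p = 0.00133). The fall from L2C was 1.57 with replicates 1 to 3 alone, where it was not called (adjusted p = 0.0822).

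Wwtr1, which encodes TAZ, began near 0 and climbed to the blastocyst. CCs held 8.64, 8.86 and 14.8 TPM, and no embryo library at 6 hpa exceeded 0.419 TPM (lowest 0.171, median 0.222). Medians of 0.724 TPM at 14 hpa, 0.688 TPM at E2C, 1.94 TPM at L2C and 1.97 TPM at 4C followed. The 8C libraries ran from 2.58 to 7.73 TPM (median 4.18), the morulae from 6.99 to 31.3 TPM (median 14.1), the ICM from 21.0 to 52.1 TPM (median 29.7) and the TE from 7.54 to 23.3 TPM (median 20.2). ICM libraries were therefore the highest group, and their range overlapped that of the TE only between 21.0 and 23.3 TPM. Wwtr1 fell by 3.19 from CCs to 6 hpa (SE 0.43, adjusted p = 4.47e-09), rose by 1.46 from 8C to morula (SE 0.35, adjusted p = 0.00297) and rose by 1.09 from morula to ICM (SE 0.35, adjusted p = 0.0172). From morula to TE the difference was 0.20 (SE 0.35, adjusted p = 0.784). The rise to ICM lost its call without morula replicate 6 (0.91, adjusted p = 0.0617), without ICM replicate 3 (0.94, adjusted p = 0.0534) and after quantile normalization (0.80, adjusted p = 0.0676), and the rise from 8C to morula lost it with replicates 4 to 6 alone (0.57, adjusted p = 0.152). With Yap1 falling and Wwtr1 rising, their medians changed order between the 8C stage, at 5.38 and 4.18 TPM, and the morula, at 2.77 and 14.1 TPM. The 8C ranges of both genes overlapped, and in each morula library Wwtr1 was the higher.

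**Figure D2:**
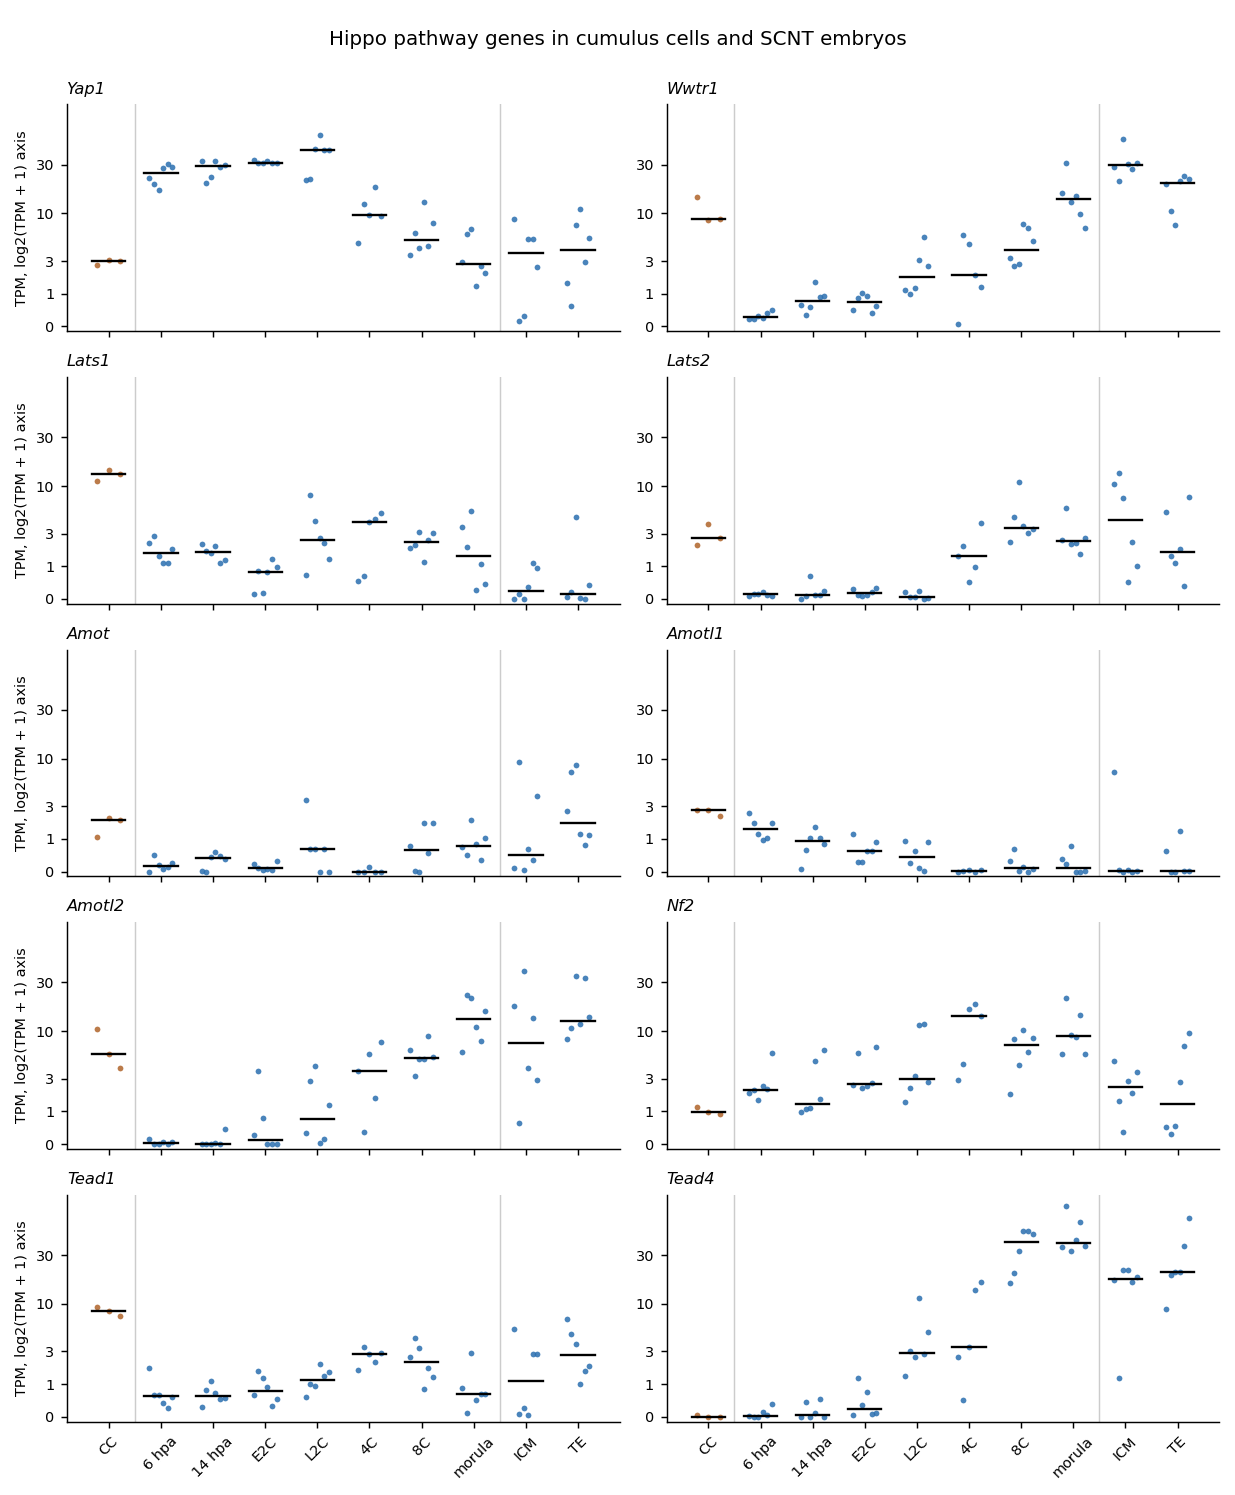
TPM of each gene on a log2(TPM + 1) axis (y) in each library of CCs (brown) and of the SCNT groups (blue, x axis), with the median of the log2 values as a bar. Yap1 lies between 17.0 and 57.7 TPM in the embryo libraries up to L2C and drops at 4C, Wwtr1 has its highest median in ICM, and Tead4 is at most 1.26 TPM up to E2C and at least 16.3 TPM in every 8C and morula library.

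The TEAD genes differed between donor cell and embryo. Tead1 was a CC transcript, at 7.51, 8.39 and 9.29 TPM, and each library of the 9 SCNT groups was below the lowest of them. Its SCNT medians stayed between 0.551 TPM at 6 hpa and 2.78 TPM at 4C and in TE. Tead1 fell by 2.54 from CCs to 6 hpa (SE 0.43, adjusted p = 8.43e-07) and rose by 1.14 from morula to TE (SE 0.36, adjusted p = 0.0145), from a median of 0.618 to 2.78 TPM. That rise was not called without TE replicate 1 (0.93, adjusted p = 0.0602) or with replicates 4 to 6 alone (0.68, adjusted p = 0.153).

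Tead4, whose product is needed for the trophectoderm of the mouse embryo, was listed at or near 0 in CCs, with a highest value of 0.0294 TPM. It stayed at or under 1.26 TPM through E2C. At L2C it ran from 1.40 to 11.4 TPM (median 2.91), and the 4C libraries held 2.59, 0.430, 3.35, 13.8 and 16.4 TPM. The 8C libraries, from 16.3 to 50.4 TPM (median 40.4), met the 4C group only at its top, and morulae ran from 32.7 to 87.3 TPM (median 38.7). In ICM 5 libraries lay between 16.6 and 21.7 TPM and replicate 2 at 1.29 TPM, while TE ran from 8.95 to 66.3 TPM (median 20.6). Tead4 rose by 1.79 from E2C to L2C (SE 0.48, adjusted p = 0.00209) and by 2.60 from 4C to 8C (SE 0.50, adjusted p = 0.000122). The first of these rises was not called with replicates 1 to 3 alone (1.18, adjusted p = 0.214). Tead4 fell by 1.75 from morula to ICM (SE 0.48, adjusted p = 0.00417). From morula to TE the difference was -0.91 (SE 0.48, adjusted p = 0.168). Among the ICM libraries, replicates 1 to 3 detected the fewest genes at 1 TPM, 6771, 6177 and 6228, against 9011 to 10032 in replicates 4 to 6, and the part of this in the ICM values was not tested.

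The kinase genes changed at different times. Lats1 was a CC transcript at 11.1, 13.3 and 14.5 TPM, above every SCNT library. It fell by 2.35 to 6 hpa (SE 0.48, adjusted p = 2.53e-05), where it ran from 1.15 to 2.84 TPM. A rise of 1.161 from E2C to L2C (SE 0.40, adjusted p = 0.0166) took the range from between 0.107 and 1.32 TPM to between 0.666 and 8.03 TPM. This rise was no longer called without L2C replicate 2 (0.90, adjusted p = 0.0776), the highest library, or after quantile normalization (0.68, adjusted p = 0.136). In ICM and TE the medians were 0.197 and 0.110 TPM, with a TE library at 4.70 TPM as the highest.

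Lats2 was nearly silent until 4C. CCs held 2.12, 2.66 and 3.95 TPM, the groups from 6 hpa to L2C had medians between 0.0444 and 0.130 TPM, and no library of those groups exceeded 0.638 TPM. At 4C the libraries held 1.496, 2.09, 0.446, 0.977 and 3.98 TPM, and at 8C they ran from 2.35 to 11.1 TPM (median 3.52). Lats2 fell by 1.80 from CCs to 6 hpa (SE 0.47, adjusted p = 0.000831) and rose by 1.25 from L2C to 4C (SE 0.41, adjusted p = 0.0116), and the 4C and L2C libraries did not overlap. The rise was 1.01 without 4C replicate 5 (adjusted p = 0.0590). Morulae had a median of 2.40 TPM, ICM 4.99 TPM and TE 1.70 TPM. In ICM, replicates 1 to 3 held 10.5, 13.6 and 7.62 TPM and replicates 4 to 6 held 0.439, 2.37 and 1.00 TPM.

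Amotl2 had the highest median of the motin genes from L2C on. It lay between 4.04 and 10.7 TPM in CCs and fell by 2.83 to 6 hpa (SE 0.62, adjusted p = 7.19e-05), where the highest library held 0.119 TPM. Medians of 0.780 TPM at L2C, 3.70 TPM at 4C, 5.23 TPM at 8C and 13.4 TPM in morulae followed, but no single step passed the test, the largest being 1.09 from 8C to morula (SE 0.51, adjusted p = 0.155). ICM values were widely spread, at 17.6, 0.561, 38.3, 4.02, 13.5 and 2.88 TPM, and TE values ran from 8.29 to 34.5 TPM (median 12.8). Amot never exceeded 9.31 TPM, and was listed at 0 in 4 of 5 libraries at 4C. Amot fell by 1.23 from CCs, which held 1.10, 2.02 and 2.11 TPM, to 6 hpa, where no library exceeded 0.423 TPM (SE 0.48, adjusted p = 0.0225). That fall was not called without CC replicate 2 (adjusted p = 0.0798) or without CC replicate 3 (adjusted p = 0.0729). Amotl1 declined from 2.23 to 2.68 TPM in CCs and 0.961 to 2.46 TPM at 6 hpa to a median of 0.0174 TPM at 4C, with 1 ICM library at 7.35 TPM and all other ICM libraries at or under 0.0244 TPM. These Amotl1 values were not tested.

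Nf2, the merlin gene, had its lowest median in CCs, at 0.911, 0.986 and 1.21 TPM, and its highest at 4C, where the libraries held 2.93, 4.44, 16.5, 18.5 and 14.2 TPM. Morulae ran from 5.76 to 21.1 TPM (median 8.96), and every one of them was above the highest ICM library at 4.86 TPM. Nf2 fell by 1.77 from morula to ICM (SE 0.50, adjusted p = 0.00553) and by 1.81 from morula to TE (SE 0.50, adjusted p = 0.00459). The TE libraries held 0.445, 0.233 and 0.458 TPM in replicates 1 to 3 and 2.74, 7.02 and 9.66 TPM in replicates 4 to 6, and with replicates 4 to 6 alone the fall to TE was 0.56 and was not called (adjusted p = 0.441).

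**Figure D3:**
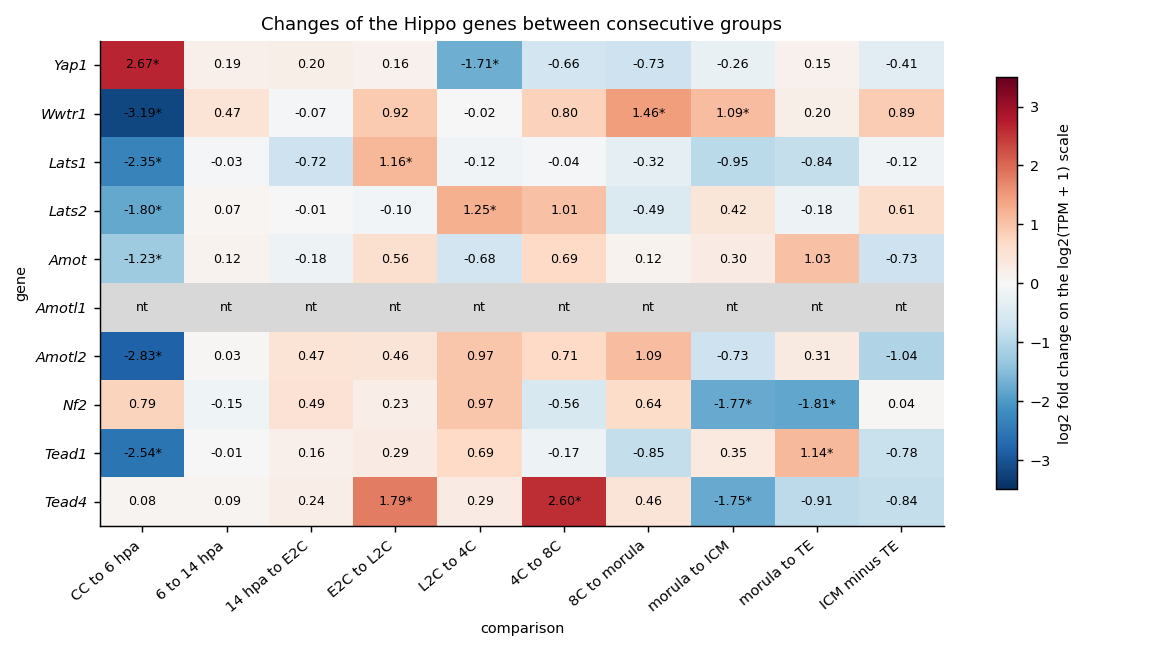
Log2 fold change on the log2(TPM + 1) scale (colour and number) of each gene (rows) between consecutive groups of the SCNT experiment (columns, later group minus earlier group, and ICM minus TE at the right), with * for a called change and nt for a gene that was not tested. The calls of the CC column cover 7 genes, those of the steps from 6 hpa to E2C none.

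Counted over the steps, 7 of the 9 tested members were called between CCs and 6 hpa, 6 lower and Yap1 higher, where 61.4% of all 12084 genes tested were called, and the median log2 fold change was -1.80 for the members and -0.28 for all genes. The 8 oocyte markers rose across that same comparison, and their part in these values was not tested. From 6 to 14 hpa and from 14 hpa to E2C limma called 0 of the 9 members, with 0 at an unadjusted p under 0.05, against 11.1% and 5.83% of 11867 genes. The count was 2 from E2C to L2C (34.9% of all genes called), 2 from L2C to 4C (38.4%), 1 from 4C to 8C (19.8%), 1 from 8C to morula (12.2%), 3 from morula to ICM (24%) and 2 from morula to TE (21.8%). These shares lie on both sides of the background, and the median change of the members from L2C to 4C was 0.29, against -0.33 for all genes.

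Ordered by median over the 10 groups of CCs and SCNT embryos, most neighbouring groups overlapped for every gene. Exceptions were the CCs above all others for Lats1 and Tead1, the CCs above 8C for Wwtr1, 4C above E2C for Lats2 and L2C above E2C for Tead4. Between the 10 group means, the members most alike in pattern were Wwtr1 and Amotl2 (Pearson r = 0.92), Lats2 and Amotl2 (r = 0.88) and Wwtr1 and Lats2 (r = 0.84). Amot was nearly as alike, with r = 0.82 to Wwtr1 and 0.77 to Amotl2. The promoter windows of Wwtr1, Lats2 and Amotl2 held the TEAD motif and that of Amot did not. A part of the motif in these patterns was not tested. Yap1, whose window also held the motif, correlated negatively with Wwtr1, Lats2 and Amotl2, with r between -0.94 and -0.91. Among 12084 genes with a mean of at least 1 TPM, those most like Yap1 were Unc13c, Cox6b2 and Lmo1 (r between 0.989 and 0.992), those most like Wwtr1 were Abcg2, Nmt1 and Cyb5r1 (highest r = 0.99), and those most like Amotl2 were Mmachc, Ndufv1 and Aup1 (highest r = 1.00). For Lats1, Lats2, Amot, Amotl1, Nf2 and Tead1 the 3 highest correlations lay between 0.931 and 0.990. These are descriptions over 10 group means of libraries that differ in depth.

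Upstream kinases and their regulators, a list of 23 genes of which 20 were tested over the SCNT steps, were called most often from E2C to L2C, where 6 rose and 3 fell, and from L2C to 4C, where 9 fell and 0 rose with a median of -0.85 against -0.33 for all genes, steps at which 34.9% and 38.4% of all genes were called. Among them were Stk3, which encodes the LATS-activating kinase MST2 and went from a median of 26.9 to 1.20 TPM (log2 fold change -3.40, adjusted p = 1.44e-08), and Wwc2, a scaffold of the KIBRA family that went from 35.8 to 3.07 TPM (-3.11, adjusted p = 1.78e-07). Stk3 rose again from morula to ICM, from 0.792 to 23.6 TPM (3.42, adjusted p = 1.80e-08), and from morula to TE, to 17.3 TPM (3.12, adjusted p = 1.32e-07). Rassf1, an adaptor of the MST kinases, rose from 14.2 TPM in morulae to 135 TPM in ICM and 162 TPM in TE, with no overlap between the morulae and either group. In all, 6 of 20 were called from morula to ICM, 3 in each direction, and 5 of 20 from morula to TE, against 24% and 21.8% of all genes.

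Genes that TEAD4 activity is known to set in the embryo are Cdx2, Gata3, Eomes and Sox2, all of them also among the lineage markers, and Sox2 averaged under 1 TPM in the SCNT fit. Gata3 had fallen from E2C to L2C (-1.48, adjusted p = 0.00445) and from L2C to 4C (-1.37, adjusted p = 0.0111), and it rose from a median of 5.85 to 126 TPM from 8C to morula (log2 fold change 3.99, adjusted p = 1.75e-09) and Cdx2 from 0.128 to 3.87 TPM (1.96, adjusted p = 0.00372). Eomes rose from morula to TE, from 1.33 to 24.1 TPM (3.59, adjusted p = 3.91e-17), and to ICM, to 15.2 TPM (3.13, adjusted p = 4.43e-15). Of the 20 target genes of YAP and TEAD known from cultured cells, only 7 reached a mean of 1 TPM in the SCNT fit. In the fit with CCs 10 were tested, and 7 of these fell from CCs to 6 hpa and 2 rose, with a median of -4.55. At that step 61.4% of all genes were called, and the median of all genes was -0.28. Ctgf, a matricellular protein gene, rose from 3.71 to 19.9 TPM from 8C to morula (2.24, adjusted p = 0.000354), with no overlap, and fell from morula to TE (-1.68, adjusted p = 0.00379). From L2C to 4C 4 of the 7 fell and 1 rose, where 38.4% of all genes were called (1404 higher and 3155 lower). Tgfb2 and Asap1 fell from L2C to 4C, Tgfb2 from 120 to 5.20 TPM (-3.96, adjusted p = 1.33e-14) and Asap1 from 16.7 to 0.967 TPM (-3.19, adjusted p = 2.46e-10).

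Among the other TEAD and Vestigial-like genes, 2 of 4 tested rose from morula to TE, where 21.8% of all genes were called. Vgll3, a cofactor of TEAD proteins, went from 2.07 TPM in morulae to 26.2 TPM in TE (log2 fold change 3.35, adjusted p = 9.16e-08) and was lower in ICM than in TE (-2.54, adjusted p = 0.000220). Tead2 rose by 1.96 to TE (adjusted p = 0.00539) and by 1.58 to ICM (adjusted p = 0.0251).

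SCNT ICM and TE were then compared. None of the 9 tested members was called by limma (0, with 3 at an unadjusted p under 0.05), against 5.34% of all genes. Wwtr1 was higher in ICM by 0.89 (SE 0.35, adjusted p = 0.137), Tead1 lower by a difference of -0.78 (SE 0.36, adjusted p = 0.215) and Amotl2 lower by a difference of -1.04 (SE 0.51, adjusted p = 0.257). Tead4 differed by -0.84 (SE 0.48, adjusted p = 0.361). With replicates 1 to 3 alone Lats2 was called higher in ICM (1.80, adjusted p = 0.0175), and with replicates 4 to 6 alone Amotl2 was called lower (-1.51, adjusted p = 0.0497). Other pathway genes did pass the test with all libraries. Ctgf was higher in ICM by 1.85 (adjusted p = 0.00741), and Cdx2 and Gata3 were lower by differences of -1.90 (adjusted p = 0.0110) and -1.56 (adjusted p = 0.0203).

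In the fertilized blastocysts the RNA of the targeted genes was checked first, which does not show the level of their proteins. Max RNA was 38.0 and 8.42 TPM in control ICM, 6.82 and 0.443 TPM after Max MO, 34.5 and 28.5 TPM in control TE and 16.3 and 8.68 TPM after Max MO. Mcrs1 RNA was 253 and 310 TPM in control ICM, 86.8 and 73.4 TPM after Mcrs1 MO, 219 and 294 TPM in control TE and 41.1 and 45.5 TPM after Mcrs1 MO. Both were lower in every library of their own MO than in the control libraries of the same lineage. After Mcrs1 MO, Max was at 14.4 and 9.25 TPM in ICM, between the control values, and at 17.6 and 15.7 TPM in TE, below both controls. MAX is the DNA-binding partner of MYC family proteins, and MCRS1 belongs to chromatin complexes.

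In control blastocysts the 9 tested members gave 0 calls between ICM and TE in limma, with 2 at an unadjusted p under 0.05, and 2.92% of all 11219 genes were called. Yap1 was 0.196 and 1.88 TPM in ICM and 7.95 and 6.47 TPM in TE, so that the lineages did not overlap (log2 fold change -2.14, SE 0.58, adjusted p = 0.0689). A lack of overlap between groups of 2 libraries is weak evidence, here and below. Tead4 was 56.6 and 24.3 TPM in ICM and 77.3 and 84.9 TPM in TE (-1.10, SE 0.37, adjusted p = 0.116). Without control ICM replicate 1, the library with TE markers, Tead4 was called lower in ICM (-1.70, adjusted p = 0.00321). Yap1 was called lower in ICM without control ICM replicate 2 (-2.77, adjusted p = 0.0381). Wwtr1, at 22.2 and 27.3 TPM in ICM and 26.3 and 28.5 TPM in TE, differed by -0.15 (SE 0.29). Ctgf was 30.1 and 223 TPM in ICM and 1.29 and 8.09 TPM in TE (4.19, adjusted p = 0.0452), with a difference of 5.62 without control ICM replicate 1 (adjusted p = 0.00162) and of 2.77 without replicate 2, where it was not called (adjusted p = 0.114).

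After Max MO, 0 of 9 members were called between ICM and TE, with 3 at an unadjusted p under 0.05 and 8.03% of all genes called. Lats2 was 0.175 and 0.173 TPM in ICM and 2.42 and 8.51 TPM in TE (log2 fold change -2.28, SE 0.68, adjusted p = 0.0590), and it was called with a pseudocount of 0.1 (adjusted p = 0.0289) and after quantile normalization (adjusted p = 0.0494). After Mcrs1 MO limma called 0 members and 0% of all genes between ICM and TE, with 0 members and 756 genes at an unadjusted p under 0.05. The ICM libraries of Mcrs1 MO held TE markers at 8270 and 11779 TPM.

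**Figure D4:**
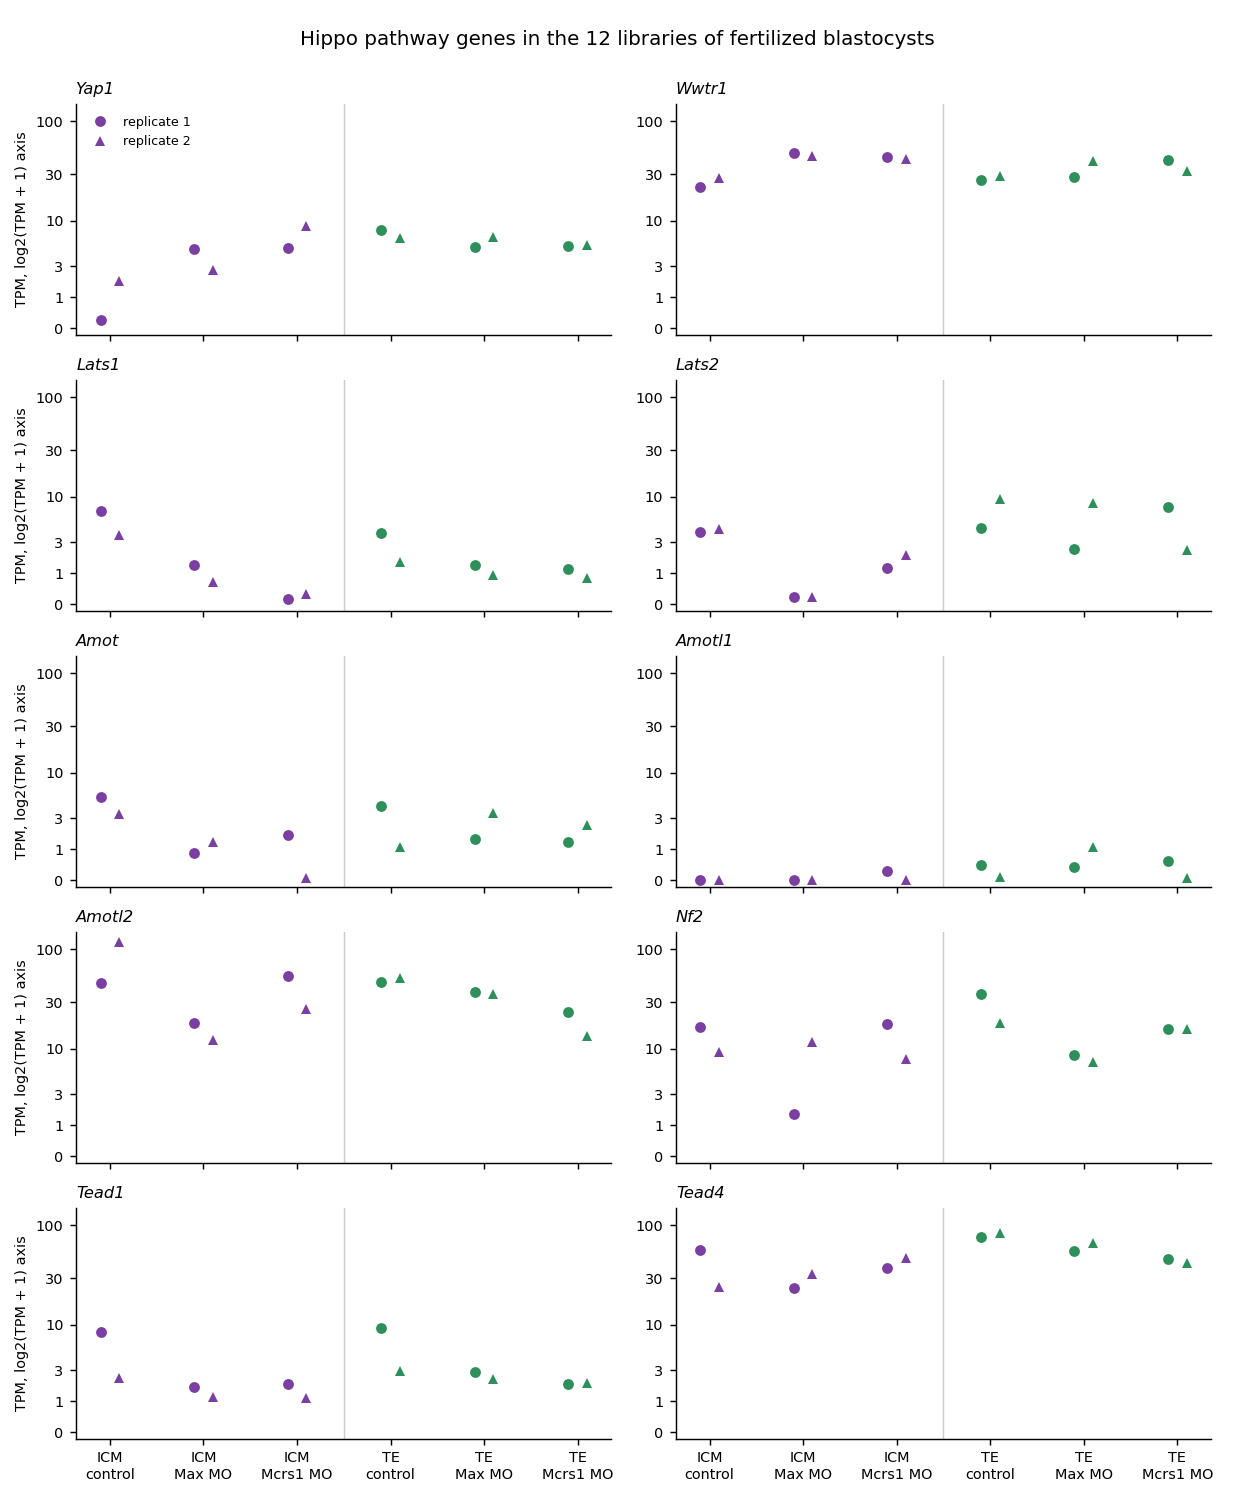
TPM of each gene on a log2(TPM + 1) axis (y) in the 12 libraries of fertilized blastocysts by lineage and MO (x axis, purple for ICM and green for TE), with a circle for replicate 1 and a triangle for replicate 2. Lats2 in Max MO ICM lies at 0.175 and 0.173 TPM, below all other libraries, and Amotl2 in Max MO ICM lies at 18.7 and 12.5 TPM, below both control ICM libraries.

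Max MO against control changed 2 of the 9 tested members in ICM, where 23.7% of all genes were called, so the members' share was close to that of all genes. Their median log2 fold change was -1.23, against -0.21 for all genes. Amotl2 was 46.2 and 117 TPM in control ICM and 18.7 and 12.5 TPM after Max MO, a fall by 2.19 (SE 0.48, adjusted p = 0.00857). Both MO libraries were below both controls, and the fall was 2.85 without control ICM replicate 1 (adjusted p = 0.00168) and 1.54 without control ICM replicate 2 (adjusted p = 0.0271). It was not called without Max MO replicate 2 (adjusted p = 0.0600) or in a fit of the 3 ICM groups alone (adjusted p = 0.0520).

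Lats2, which holds an E-box next to its start of transcription, was 4.02 and 4.35 TPM in control ICM and 0.175 and 0.173 TPM after Max MO, a fall by 2.14 (SE 0.68, adjusted p = 0.0392). The groups did not overlap, and the replicates of each group were close to each other. The call rested on all 4 libraries, since the adjusted p lay between 0.0570 and 0.123 when any of them was left out. In TE the Lats2 libraries overlapped, at 4.46 and 9.39 TPM in controls and 2.42 and 8.51 TPM after Max MO (-0.40, SE 0.68, adjusted p = 0.799). Yap1 and Amot, the other genes with an E-box, went from 0.196 and 1.88 to 4.91 and 2.65 TPM (1.32, SE 0.58, adjusted p = 0.112) and from 5.39 and 3.43 to 0.854 and 1.34 TPM (-1.35, SE 0.69, adjusted p = 0.166) in ICM. Amotl2, which was called lower as well, held no E-box in its window, and a part of the E-boxes in these values was not tested.

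Lats1 was 6.95 and 3.71 TPM in control ICM and 1.43 and 0.637 TPM after Max MO (-1.62, SE 0.58, adjusted p = 0.0591). Wwtr1 was 22.2 and 27.3 TPM in control ICM and 48.6 and 45.4 TPM after Max MO, a difference of 0.91 (SE 0.29, adjusted p = 0.0397) that is under 2-fold. Tead4 differed by -0.40 (SE 0.37, adjusted p = 0.454). Leaving out control ICM replicate 2 left 1 control ICM library. The differences were then 1.96 for Yap1, 1.05 for Wwtr1, -1.995 for Lats1, -1.54 for Amotl2 and -1.94 for Tead1. The summed TE markers of the ICM groups, 622 and 16314 TPM in controls and 2788 and 5952 TPM after Max MO, differ between the same libraries, and their part in these values was not tested.

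In TE, Max MO left 0 of 9 members called by limma, with 1 at an unadjusted p under 0.05, against 2.5% of all genes. That member was Nf2, at 36.2 and 18.7 TPM in control TE and 8.59 and 7.26 TPM after Max MO (-1.61, SE 0.71, adjusted p = 0.233). The response to Max MO was compared between ICM and TE by an interaction term. It was called for 0 members, with 1 at an unadjusted p under 0.05, and for 0% of all genes, with 1473 at an unadjusted p under 0.05. The difference of responses was -1.77 for Amotl2 (SE 0.68, adjusted p = 0.320) and -1.74 for Lats2 (SE 0.96, adjusted p = 0.477). Without control ICM replicate 1 that of Amotl2 was -2.43 and was called (adjusted p = 0.0460).

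Mcrs1 MO changed 2 of the 9 tested members in ICM, where 10.1% of all genes were called. Lats1 was 6.95 and 3.71 TPM in control ICM and 0.126 and 0.250 TPM after Mcrs1 MO, a fall by 2.37 (SE 0.58, adjusted p = 0.0279), without overlap. Yap1 was 0.196 and 1.88 TPM in control ICM and 5.03 and 8.81 TPM after Mcrs1 MO, a rise of 2.05 (SE 0.58, adjusted p = 0.0438), also without overlap. Both calls were lost when either Mcrs1 MO library was left out (adjusted p between 0.0958 and 0.196). With the replicate number as a block Yap1 was not called (adjusted p = 0.0527) and 1 member remained. Without control ICM replicate 1 the Lats1 fall was 1.99 (adjusted p = 0.0446), Yap1 differed by 1.42 (adjusted p = 0.0952) and Amotl2, at 54.8 and 26.0 TPM after Mcrs1 MO, was called lower (-1.60, adjusted p = 0.0289). The Lats1 fall without control ICM replicate 2 was 2.74 (adjusted p = 0.0225) and the Yap1 rise 2.69 (adjusted p = 0.0159). The 6 fertilized TE libraries held Yap1 at between 5.16 and 7.95 TPM, and the summed TE markers of the Mcrs1 MO ICM were 8270 and 11779 TPM, whose part in the Yap1 value was not tested. The 8 ICM markers summed to 2338 and 2489 TPM there, against between 2982 and 4021 TPM in control ICM. Among them Klf2 (-2.64, adjusted p = 0.0202) and Fgf4 (-2.30, adjusted p = 0.0448) fell, as did the TE marker Tfap2c (-1.95, adjusted p = 0.00375), and Fgf4 was not called without control ICM replicate 1 (-1.43, adjusted p = 0.118). The part of these markers in the Lats1 and Yap1 values was not tested.

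Mcrs1 MO left 0 of 9 members called in TE by limma, with 2 at an unadjusted p under 0.05, against 5.08% of all genes. These were Amotl2, at 48.3 and 51.9 TPM in control TE and 23.8 and 13.7 TPM after Mcrs1 MO (-1.42, SE 0.48, adjusted p = 0.102), and Tead4, at 77.3 and 84.9 TPM in control TE and 47.0 and 42.6 TPM (-0.84, SE 0.37, adjusted p = 0.184). Neither gene overlapped between the groups, but nor did Yap1, Wwtr1, Lats1, Nf2 and Tead1. The share of all genes without overlap was not computed. The ICM markers summed to between 1245 and 1326 TPM in these TE libraries of Mcrs1 MO, against between 235 and 485 TPM in control TE, and the ICM marker Spp1 rose (3.71, adjusted p = 0.0301), whose part in both values was not tested. The response to Mcrs1 MO was not called different between ICM and TE for any tested member (0, with 1 at an unadjusted p under 0.05, and 0% of all genes, with 972 at an unadjusted p under 0.05). Yap1 had the largest difference of responses, 2.42 (SE 0.82, adjusted p = 0.484). Without control ICM replicate 1, Tead4 was called in this comparison (1.63, adjusted p = 0.0306).

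**Figure D5:**
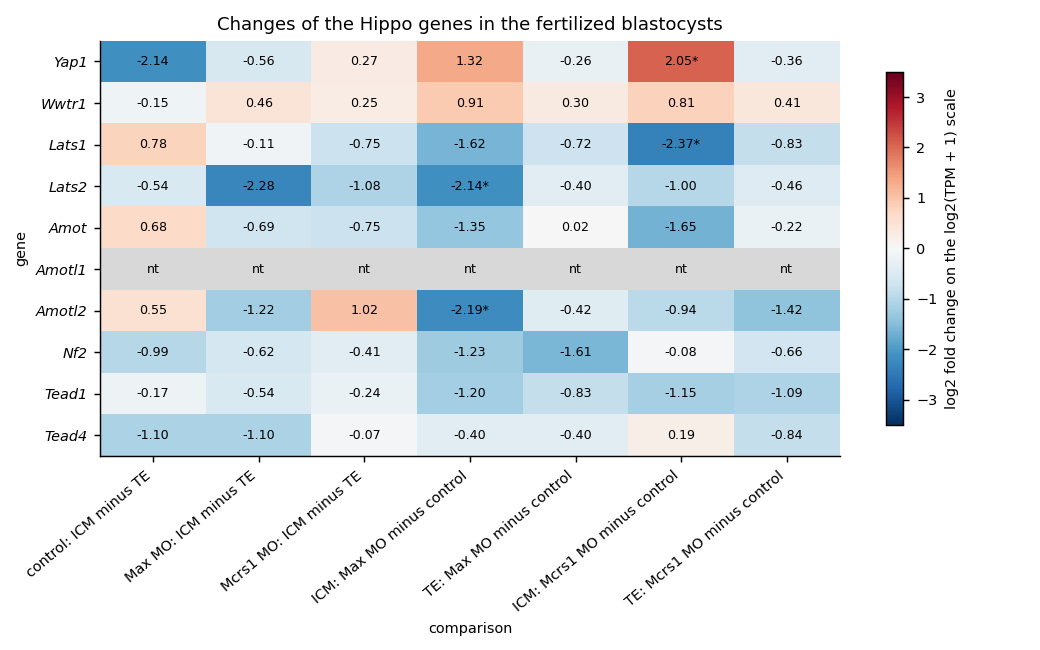
Log2 fold change on the log2(TPM + 1) scale (colour and number) of each gene (rows) in 7 comparisons of fertilized blastocysts (columns), with * for a called change and nt for a gene that was not tested. The 4 called values are Lats2 and Amotl2 in ICM after Max MO and Yap1 and Lats1 in ICM after Mcrs1 MO.

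Other pathway genes were examined in the same comparisons. The MO groups share their control libraries. Of 20 tested upstream kinases and regulators, 6 fell in ICM after Max MO and 0 rose, with a median log2 fold change of -0.89 against -0.21 for all genes and 23.7% of all genes called. The count was larger in the fit without control ICM replicate 2, which held 1 control ICM library. The share of all genes called in that fit is not given here. Taok1, a kinase that activates the MST kinases, was at a median of 22.3 TPM in control ICM, 3.61 TPM after Max MO (-2.39, adjusted p = 0.00858) and 5.51 TPM after Mcrs1 MO (-1.92, adjusted p = 0.0400). The value after Mcrs1 MO was not called without control ICM replicate 1 (-1.72, adjusted p = 0.0636). Mark2, a polarity kinase, went from 44.2 to 5.05 TPM after Max MO (-2.87, adjusted p = 0.00200), and Limd1, a LIM protein that binds LATS kinases, from 15.9 to 1.82 TPM (-2.58, adjusted p = 0.00299). Tead2 fell from 33.4 to 5.92 TPM in ICM after Max MO (-2.29, adjusted p = 0.00398) and from 44.1 to 12.4 TPM in TE after Mcrs1 MO (-1.75, adjusted p = 0.0383). Taok1, Mark2, Limd1 and Tead2 were each called lower in ICM after Max MO without either control ICM library. Of the 4 genes set by TEAD4 activity and the 7 tested targets of cultured cells, limma called 0 in any of the 4 comparisons of an MO with its control, with 2 targets at an unadjusted p under 0.05 in ICM after either MO and 0 in TE. Cdx2 and Gata3 in ICM differed by -0.91 (SE 1.26) and -1.87 (SE 0.99) after Max MO, over control libraries that themselves lay far apart. Cdx2 was called higher after Max MO without control ICM replicate 1 (1.88, adjusted p = 0.0123) and without replicate 2 lower (-3.71, adjusted p = 0.000265), and Gata3 was called lower without replicate 2 (-4.15, adjusted p = 1.20e-05). After Mcrs1 MO, Gata3 was called higher without replicate 1 (2.73, adjusted p = 4.63e-05) and lower without replicate 2 (-1.82, adjusted p = 0.00170), and Cdx2 was called higher without replicate 1 (4.24, adjusted p = 0.000225).

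The ICM against TE difference of the SCNT blastocysts was set against that of the fertilized controls in 1 fit of 16 libraries, without comparing levels of the 2 experiments. The limma fit called 0 of 9 members, with 0 at an unadjusted p under 0.05, and 0.00922% of 10847 genes. For Yap1 the difference of differences was 1.74 (SE 1.33), for Amotl2 -1.59 (SE 1.36) and for Wwtr1 1.04 (SE 0.76), each with an adjusted p of 1.00. The SEs of these members lay between 0.76 and 1.36 on the log2 scale, so that even differences as large as those of Yap1 and Amotl2 were not detectable here. The absence of calls does not show that the lineage differences of the 2 experiments are alike.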

How the data were processed

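RNA was measured by Smart-seq2 in 68 mouse libraries of 16 groups, taken from the labels. Per the labels and the study's methods, the authors trimmed reads with cutadapt 1.16, aligned them to mm10 with HISAT2 and ran StringTie, and they deposited 1 gene table per library, with no pooled replicates. The deposited TPM was treated as a signal, because the column lists loci assembled from each library and 24421 reference gene symbols together. Named reference genes were used here, with rows of a symbol summed. The deposited coverage signal and FPKM gave only the depth (aligned gigabases as their ratio). Counts were not used here, so the count test of the study was not run.

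Log2(TPM + 1) was fitted with limma 3.58.1 (lmFit, and eBayes with trend) in R 4.3.3 on genes with a mean of at least 1 TPM, over 56 libraries of CCs and SCNT embryos, 53 SCNT libraries, 12 fertilized libraries or 16 libraries of both experiments. Calls needed a 2-fold change and an adjusted p below 0.05 (Benjamini-Hochberg). Scripts were tested on simulated data. All 10 members are named in every comparison. Of each other list, at most 4 called genes without overlap, with the largest changes, were eligible to be named, and the values of Ctgf, Cdx2, Gata3, Vgll3 and Tead2 beyond that rule, and the common gene Ldha, were chosen after they were seen. Likeness of pattern is not reported here for Tead4. The members and lists were chosen with earlier results of these data known. Promoters are RefSeq windows on GRCm38.p6, the build also called mm10. Tables were made with Python 3.11.15, pandas 2.3.3 and numpy 2.4.6. No pair of libraries of a group held identical values. Deviations of libraries of the same number correlated over 0.1 in each of 6 pairs from 6 to 14 hpa (lowest r = 0.155). They did so between SCNT ICM and TE as well (lowest r = 0.124). Only 1 and 2 of the 6 libraries, respectively, correlated best with the library of their own number, so the numbers cannot be read as pairs.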

Additional observations from a re-analysis of the deposited data

Results flagged for a closer look

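In 12 of 90 sets of a gene and a group of 5 or 6 SCNT libraries, 1 library stood far from the others on the log2(TPM + 1) scale by Dixon's gap test, which flags about 1 in 20 by chance. The widest gap in level was in ICM, where Tead4 was 1.29 TPM in replicate 2 and between 16.6 and 21.7 TPM in the others, and where Amotl1 was 7.35 TPM in replicate 1 and at most 0.0244 TPM in the others. Lats1 was 4.70 TPM in TE replicate 3, against at most 0.339 TPM in the other TE libraries. Lats2 was 5.90 TPM in morula replicate 2 and 0.638 TPM in 14 hpa replicate 3. Amot was 3.58 TPM in L2C replicate 1 and 0.110 TPM in 4C replicate 3, where the other 4C libraries were listed at 0. Amotl2 was 3.74 TPM in E2C replicate 2 and 0.367 TPM in 14 hpa replicate 6. At 6 hpa, Nf2 (5.93 TPM) and Tead4 (0.301 TPM) stood apart in replicate 6 and Tead1 (1.81 TPM) in replicate 1.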

How the results depend on the processing

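Of 22 calls of a member in a comparison, 9 held under every alternative, and over 344 refitted values 304 held, 40 kept the direction but lost the call and 0 reversed. Counts of members called moved by over 1.5 times as follows, and the cause was not tested. The shares of all genes called in these refits are not given here, so the counts have no background beside them. Quantile normalization gave 1 from E2C to L2C, 6 from L2C to 4C, 3 from 8C to morula and 1 for Max MO ICM against TE. Replicates 1 to 3 alone gave 1 from E2C to L2C, 0 from L2C to 4C, 2 from 4C to 8C and 1 for SCNT ICM against TE, and replicates 4 to 6 alone gave 4 from L2C to 4C, 2 from 4C to 8C, 2 from 8C to morula and 1 for SCNT ICM against TE. A pseudocount of 0.1 gave 1 for Max MO ICM against TE and 1 for Mcrs1 MO in ICM. Using all genes above 0 gave 1 for Max MO and 1 for Mcrs1 MO in ICM, and rescaling TPM over annotated genes gave 1 for Mcrs1 MO in ICM. Fits of fewer groups gave 2 for Max MO ICM against TE, 0 for Max MO and 0 for Mcrs1 MO in ICM, and 1 each in TE.

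Leaving out single libraries gave between 1 and 3 from L2C to 4C (1 without 4C replicate 5), 1 to 2 from 4C to 8C (2 without 4C replicate 2 or 5), 1 to 2 from 8C to morula (2 without morula replicate 3) and 1 to 3 from morula to TE (1 without TE replicate 1). In the fertilized blastocysts it gave 0 to 1 for control ICM against TE, 1 to 5 for Max MO in ICM, 0 to 2 for Mcrs1 MO in ICM and 0 to 1 for each difference of responses, where the lone library left in a group is assumed to vary like the other groups. With the replicate block the count was 1 for Mcrs1 MO in ICM and 3 from L2C to 4C, where Nf2 joined (1.09, adjusted p = 0.0496), and the block changed no other call. In these comparisons the libraries share only a number by the check of their deviations. Scaling moved the median of all genes most from L2C to 4C, from -0.33 to -0.57 when TPM was rescaled and to 0.09 after quantile normalization, and from E2C to L2C from 0.26 to 0.54 and -0.02. For Max MO in ICM it was -0.21, -0.32 and -0.03. Depth could be expressed only as aligned bases, and the counting error of low TPM values was not estimated.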

Other observations

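Genes of polarity and cell junctions, which act upstream of the Hippo kinases in the embryo, were described over the same SCNT steps. Of 22 genes, 19 were tested. From L2C to 4C, where 38.4% of all genes were called (1404 higher and 3155 lower), 8 fell and 0 rose, among them Rock1, a kinase of the actin cytoskeleton, from a median of 693 to 83.7 TPM, and Mpp5, a scaffold of the apical Crumbs complex, from 43.8 to 5.06 TPM. From 8C to morula 5 rose and 0 fell, with 12.2% of all genes called. Pard6b, a subunit of the apical PAR complex, went from 4.71 to 16.1 TPM and Ctnna1, the alpha-catenin gene of adherens junctions, from 39.7 to 87.5 TPM. From morula to ICM 5 rose and 3 fell, with a median log2 fold change of 0.69 against -0.16 for all genes and 24% of all genes called. Ctnna1 went from 87.5 to 287 TPM, and Ezr, which encodes an apical linker of membrane and actin, from 3.91 to 32.3 TPM. From morula to TE 9 rose and 1 fell, with 21.8% of all genes called. Pard3, another PAR complex gene, went from 0.644 to 11.8 TPM and Ctnna1 to 385 TPM, while Rhoa fell from 487 to 149 TPM. The median log2 fold change of the tested genes was 1.04 from morula to TE, against -0.03 for all genes.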
